A study of Bos taurus with 4 samples.

Results

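Genomic imprinting is the expression of a gene from the maternal or the paternal copy only, set by DNA methylation that differs between egg and sperm. The pre-implantation embryo has to keep these marks while methylation is lost over most of the genome, and in vitro culture of cattle embryos is known to disturb them in some embryos. Many imprinted genes act on fetal and placental growth.

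Expression of 8 imprinted genes was looked up in inner cell mass (ICM), from which the embryo proper forms, of *Bos taurus* embryos produced in vitro. The genes were *NAP1L5*, *CDKN1C*, *PEG3*, *PEG10*, *MEST*, *SNRPN*, *IGF2R* and *PHLDA2*, and every probe carrying one of these symbols in the platform annotation was taken. This gave 8 probes of 43653 for 4 of the 8 genes, with 1 probe each for *NAP1L5*, *CDKN1C* and *PHLDA2* and 5 probes for *SNRPN*. No probe carried the symbol of *PEG3*, *PEG10*, *MEST* or *IGF2R*, and these genes were not analysed here. The genes were chosen by name with the ratios of these arrays known, in particular the difference between the groups measured below, so their values are a description and carry no p-value. The probes measure total transcript and do not tell the maternal from the paternal copy.

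MAPK-inhibited ICM came from embryos cultured from the morula stage with PD0325901, which inhibits MEK, a kinase of the MAPK pathway, and control ICM came from embryos cultured with the solvent DMSO. The study used the inhibitor to obtain ICM in which more cells express *NANOG*. Blastocysts of both groups were collected on day 9 and their ICM was dissected by hand, which leaves some trophectoderm cells attached, and the collected cells of a group were harvested together. Each group had 2 arrays, on which the ICM sample was hybridised with a common reference made of pooled blastocysts. ICM was labelled with Cy3 on the a arrays and with Cy5 on the b arrays, so replicate and dye cannot be told apart. Values are log2 ratios of ICM sample over pool, in which 0 means as much transcript as in the pool, and differences are the log2 ratio in MAPK-inhibited ICM minus that in control ICM. In ICM of mixed cells, a change in the share of a cell type and a change in RNA per cell cannot be told apart.

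The array of MAPK-inhibited replicate a stood apart in spot quality. A spot was called uneven when the SD of its pixels exceeded 0.5 of their mean, and 33.6% of probes were uneven on MAPK-inhibited a and 4.96% on MAPK-inhibited b, against 0.19% on control a and 0.0527% on control b. Probes whose sample signal lay above the negative control spots made up 83.7% and 97.5% on the MAPK-inhibited arrays a and b, against 99.5% and 99.8% on the control arrays. All 8 probes of the imprinted genes were above that limit on all 4 arrays. Of the defining markers, *NANOG* of the epiblast had log2 ratios of 2.72 and 2.66 in MAPK-inhibited ICM and of 1.39 and 1.32 in control ICM. *GATA6* of the hypoblast had -0.81 and -0.61 in MAPK-inhibited ICM and -0.19 and -0.12 in control ICM. No probe of the 43653 passed an adjusted p of 0.05 between the groups (limma, Benjamini-Hochberg; percent called 0), the smallest adjusted p being 0.263. At an unadjusted p under 0.05, 4425 probes (10.1%) differed, of which 2403 (5.5% of all probes) were higher and 2022 (4.63%) were lower in MAPK-inhibited ICM. The split was 904 higher and 4763 lower with each array centred on its median in place of loess, and 1641 higher and 2153 lower with the mean of the local background in the background correction.

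*NAP1L5* encodes a nucleosome assembly protein of a small family of histone chaperones and is paternally expressed in human and mouse. Its log2 ratios were 1.22 and 1.02 on the MAPK-inhibited arrays a and b, and 0.20 and 0.25 on the control arrays a and b. Both MAPK-inhibited arrays were above both control arrays, and all 4 were above the pool. *NAP1L5* averaged 1.12 ± 0.139 in MAPK-inhibited ICM and 0.22 ± 0.034 in control ICM (SD, n = 2 arrays each). The difference was 0.90 (SE 0.094 from the fit), a fold of 1.86, with folds of 2.03 between the a arrays and 1.71 between the b arrays. Of all probes, 0.247% had a difference as high. Since this gene, like *CDKN1C* below, was chosen with its difference known, such a share is only a description.

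The spot signals of *NAP1L5*, in scanner units, show on which channel the ratio rests. The sample channel read 537 and 864 on the MAPK-inhibited arrays a and b, and 574 and 655 on the control arrays a and b. The pool channel read 267 and 413 on the MAPK-inhibited arrays and 435 and 586 on the control arrays. On replicate b the sample channel was brighter with the inhibitor, whereas on replicate a it was slightly dimmer and only the pool channel of that array was much dimmer. The arrays also differed in overall brightness, with a median sample signal of 110 and 133 on the MAPK-inhibited arrays a and b, against 167 and 175 on the control arrays. The *NAP1L5* spot on MAPK-inhibited a was uneven, with a pixel SD of 0.902 of the mean, against 0.0856 on MAPK-inhibited b, 0.0846 on control a and 0.0881 on control b. With spot medians in place of means, an alternative chosen after seeing the data, the ratio on that array was 1.07 and the difference was 0.83. Without that array the difference was 0.80, and without MAPK-inhibited b it was 1.00.

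*CDKN1C* encodes the cyclin-dependent kinase inhibitor p57, which holds back the cell cycle and restrains fetal growth in mouse, and it is expressed from the maternal copy. Its log2 ratios were 0.33 and 0.16 on the MAPK-inhibited arrays a and b, and -0.21 and -0.23 on the control arrays a and b. The MAPK-inhibited arrays were thus above the pool and the control arrays below it. *CDKN1C* averaged 0.24 ± 0.124 in MAPK-inhibited ICM and -0.22 ± 0.013 in control ICM (SD, n = 2 arrays each). The difference was 0.46 (SE 0.081), a fold of 1.38, and 1.93% of all probes had one as high. Taken within each dye, the difference was 0.54 between the a arrays and 0.38 between the b arrays.

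The sample channel of *CDKN1C* read 315 and 414 on the MAPK-inhibited arrays a and b, and 462 and 428 on the control arrays. Its pool channel read 341 and 371 on the MAPK-inhibited arrays and 483 and 536 on the control arrays. Both channels were thus dimmer on the MAPK-inhibited arrays than on the control arrays of the same dye, by about the same share between the a arrays and mostly in the pool channel between the b arrays. On MAPK-inhibited a the sample channel was dimmer than the pool channel before normalization, as was the median sample signal of that array (110) beside its median pool signal (147). With median centring in place of loess the ratio there was 0.10 in place of 0.33, still above the pool. The spot on MAPK-inhibited a had a pixel SD of 0.407 of the mean, against 0.106 on MAPK-inhibited b, 0.0828 on control a and 0.110 on control b. With spot medians the difference was 0.49, and without MAPK-inhibited a it was 0.37.

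*PHLDA2* encodes a small pleckstrin homology domain protein that limits placental growth in mouse, is expressed from the maternal copy and lies close to *CDKN1C*. In the gene order of RefSeq (assembly ARS-UCD2.0) it is 2 steps from *CDKN1C*. Its log2 ratios were -0.29 and 0.11 on the MAPK-inhibited arrays a and b, and -0.37 and -0.35 on the control arrays a and b. The control arrays lay together below the pool, while the MAPK-inhibited arrays lay on either side of it. *PHLDA2* averaged -0.09 ± 0.284 in MAPK-inhibited ICM and -0.36 ± 0.017 in control ICM (SD, n = 2 arrays each), a difference of 0.27 (SE 0.119). That difference rested on replicate b, since it was 0.46 between the b arrays and 0.08 between the a arrays. Without MAPK-inhibited b it was 0.07, and without MAPK-inhibited a it was 0.47. The spot on MAPK-inhibited b had a pixel SD of 0.472 of the mean, and the sample and pool channels there read 197 and 181, while on MAPK-inhibited a they read 242 and 457. On control a the sample and pool channels read 306 and 366, and on control b they read 326 and 450.

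*SNRPN* encodes a protein of the small nuclear ribonucleoprotein particles that splice RNA and is expressed from the paternal copy, at the locus of Prader-Willi syndrome in human. Its brightest probe, number 12541, had log2 ratios of 0.39 and 0.40 on the MAPK-inhibited arrays a and b, and 0.32 and 0.20 on the control arrays a and b. The sample channel of this probe read 1971 and 2242 on the MAPK-inhibited arrays, and 2449 and 2420 on the control arrays. All 4 ratios were above the pool and the groups did not overlap, but the difference of 0.14 (SE 0.078) was a fold of 1.10 and was small beside that of *NAP1L5*. With median centring in place of loess its sign turned, to -0.04.

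The other probes of *SNRPN* showed no common difference between the groups. Probe 12924 had 0.74 and 0.39 in MAPK-inhibited ICM and 0.63 and 0.46 in control ICM, a difference of 0.02 (SE 0.082). Probe 27004 had 0.14 and 0.26 in MAPK-inhibited ICM and 0.05 and 0.10 in control ICM, a difference of 0.13 (SE 0.073). Probes 23327 and 16427 had differences of -0.08 (SE 0.143) and -0.03 (SE 0.085). The 5 differences thus ran from -0.08 to 0.14, with overlapping groups for 3 of the probes, and the mean over probes was 0.03. What the probes shared was their side of the pool, since 4 of 5 were above it on all 4 arrays, and the remaining probe 23327 was so on 3 of them, with -0.0062 on MAPK-inhibited a. Of all probes, 14.1% were above the pool on all 4 arrays.

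**Figure D1:**
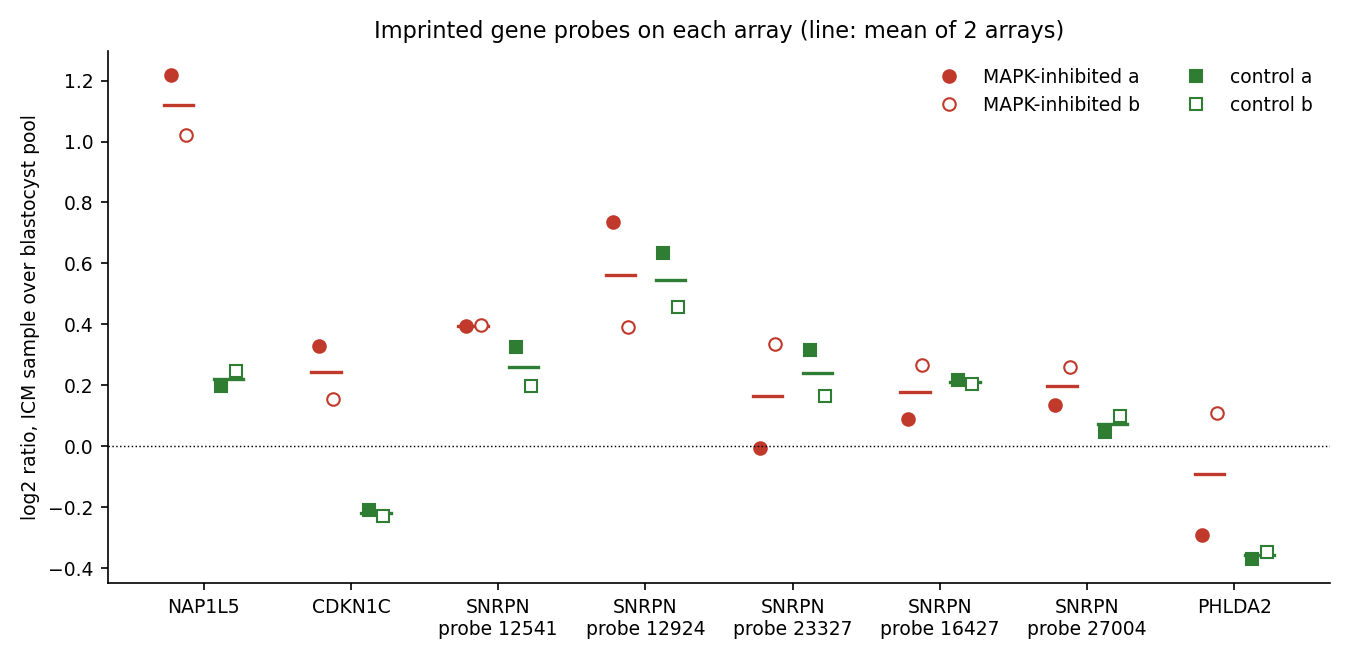
Log2 ratio of ICM sample over blastocyst pool for the 8 probes, with MAPK-inhibited ICM (circles) left of control ICM (squares), filled for replicate a and open for replicate b, and a line at the mean of 2 arrays. *NAP1L5* had 1.22 and 1.02 in MAPK-inhibited ICM and 0.20 and 0.25 in control ICM, and the groups of *SNRPN* overlapped for 3 of 5 probes.

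**Figure D2:**
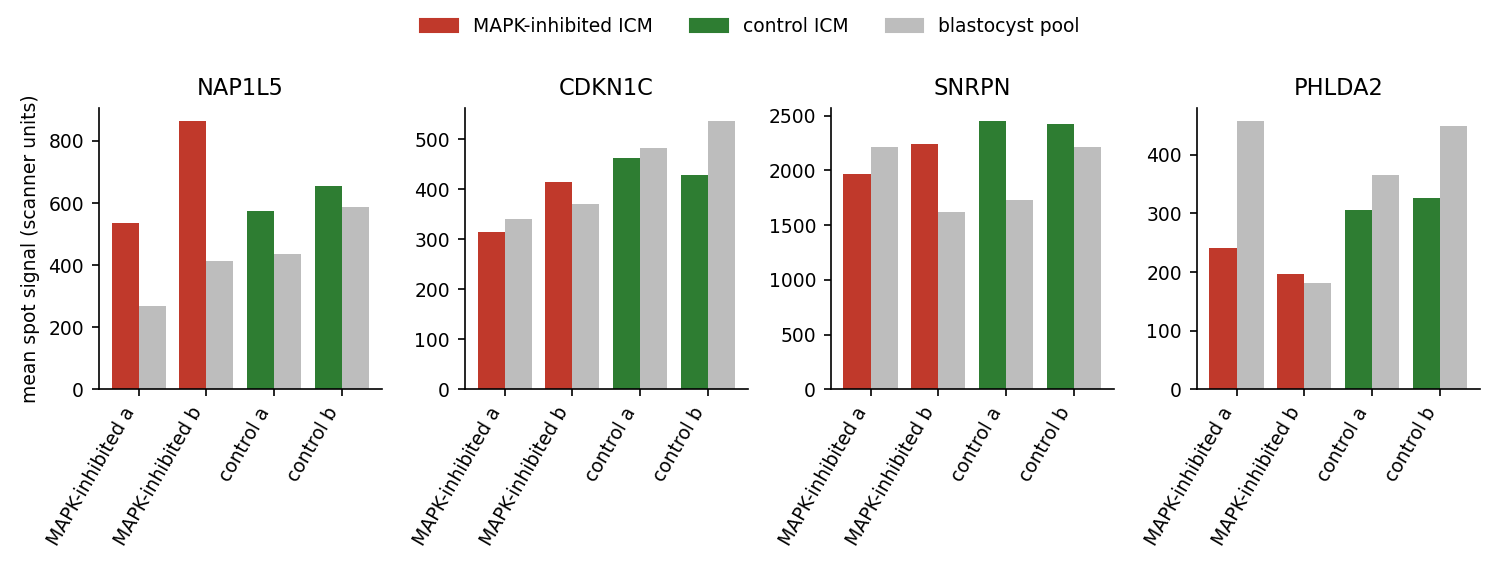
Mean spot signal in scanner units, without background correction or normalization, of the ICM sample (red, MAPK-inhibited; green, control) and of the blastocyst pool (grey) on each array, for the brightest probe of each gene. For *NAP1L5* the sample channel read 864 on MAPK-inhibited b and 655 on control b, while on the a arrays it read 537 and 574.

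Across the brightest probes, both MAPK-inhibited arrays were above both control arrays for 4 of 4 genes, and across all their probes for 5 of 8. In the same direction, the groups did not overlap for 19.9% of named genes and 17.2% of all probes. The genes were chosen with this contrast known, so nothing is read from that count. The median difference of the 4 genes was 0.36, beside -0.00064 over all probes. Relative to the pool, *CDKN1C* and *PHLDA2* were below it on both control arrays, as were 28.5% of all probes, and *NAP1L5* and *SNRPN* were above it, as were 29.7%. Of all named genes, 4.09% were, like *CDKN1C*, below the pool on both control arrays and above it on both MAPK-inhibited arrays. In order of their differences the genes ran *NAP1L5*, *CDKN1C*, *PHLDA2* and *SNRPN*. *NAP1L5* stood above *CDKN1C* in each replicate, with 1.02 against 0.54 between the a arrays and 0.78 against 0.38 between the b arrays. *PHLDA2* could not be placed between *CDKN1C* and *SNRPN* beyond its spread, being above *CDKN1C* between the b arrays (0.46 against 0.38) and near *SNRPN* between the a arrays (0.08 against 0.07).

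**Figure D3:**
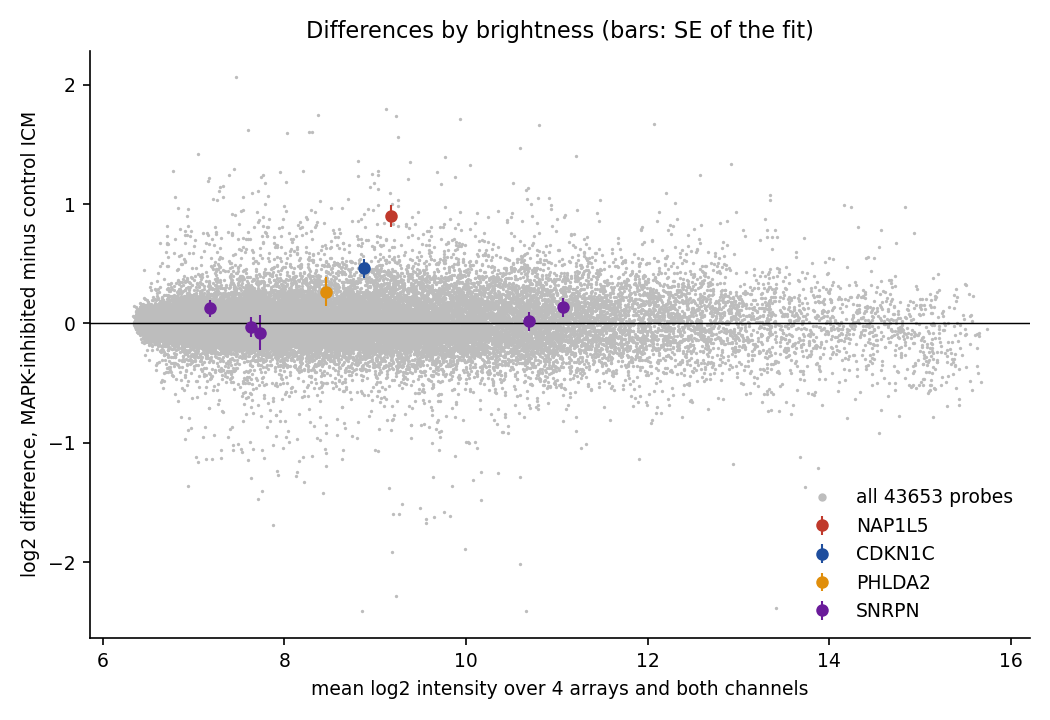
Log2 difference between MAPK-inhibited and control ICM against mean log2 intensity over 4 arrays and both channels, for all 43653 probes (grey) and the probes of the imprinted genes (coloured, bars: SE of the fit). *NAP1L5*, chosen with this difference known, lay at 0.90, above most probes of its brightness, and *SNRPN* lay between -0.08 and 0.14.

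The size of the differences moved with the background correction and with the scaling. For *NAP1L5* it was 0.59 when normexp used the mean of the local background, 0.74 with median centring, 1.07 with no background correction and 1.03 in the authors' processed ratios. For *CDKN1C* it was 0.31 with the background mean, 0.31 with median centring, 0.53 with no background correction and 0.51 in the authors' processed ratios. Both genes were higher in MAPK-inhibited ICM in each of these, and in each set of 3 arrays, where *NAP1L5* ranged from 0.80 to 1.00 and *CDKN1C* from 0.37 to 0.55.

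**Figure D4:**
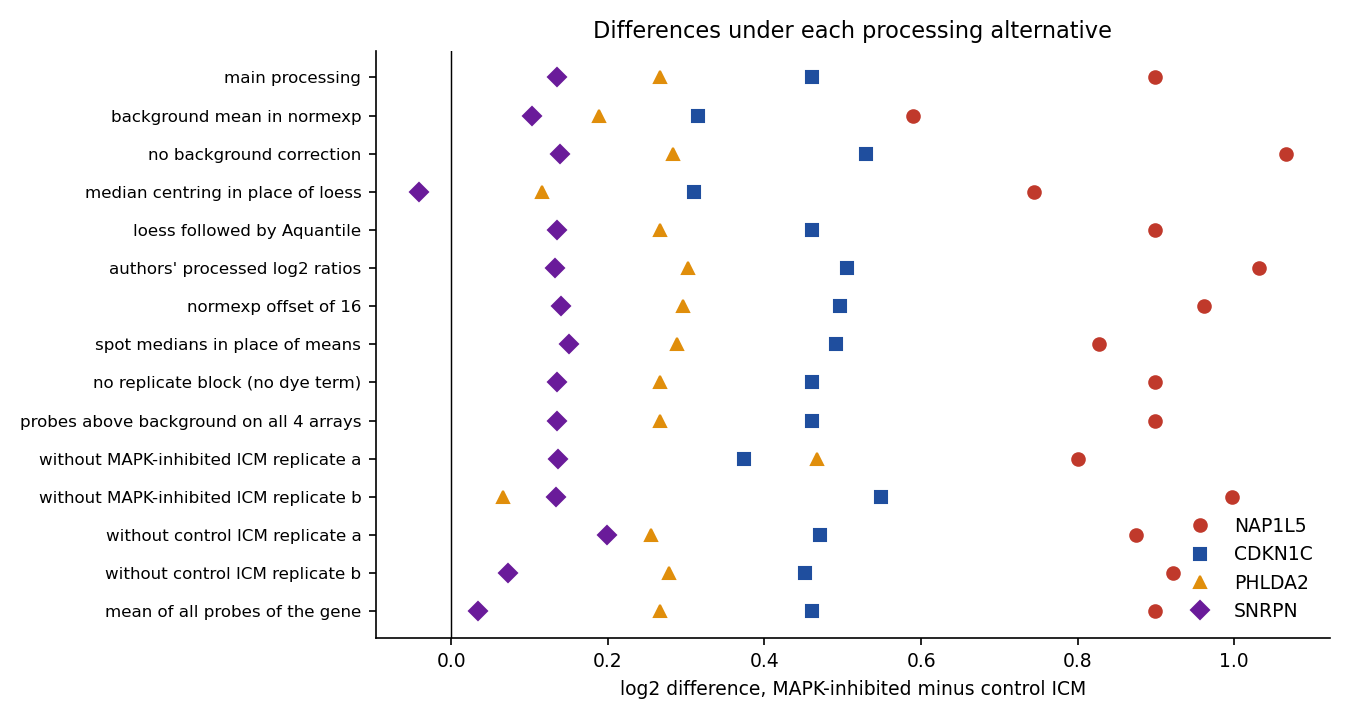
Log2 difference between MAPK-inhibited and control ICM of each gene (horizontal axis) under the main processing and each alternative (rows). *NAP1L5* ranged from 0.59 to 1.07 and stayed above the other genes in every row, and *SNRPN* crossed 0 with median centring.

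Other imprinted genes were taken from a list of 66 genes reported as imprinted in human or mouse, without the genes above, of which 35 had a named probe. Of these 35, 18 had a positive and 17 a negative difference, with a median of 0.0012, beside 0.0069 over all 12545 named genes. For 4 of the 35 the probe was above background on 3 or fewer arrays, so their values do not show whether they differed. With only probes above background on all 4 arrays, the median was also 0.0012. None of the 35 passed the adjusted threshold. At an unadjusted p under 0.05, 3 were higher and 3 were lower in MAPK-inhibited ICM, or 17.1% of the 35, beside 14.2% of all named genes (8.77% higher and 5.45% lower). Genes expressed from the paternal copy (10 measured, 1 higher and 1 lower) and from the maternal copy (22 measured, 2 higher and 2 lower) were thus as often higher as lower.

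Of the genes higher at the unadjusted threshold, *NDN* encodes necdin, a growth suppressor of the MAGE family, is expressed from the paternal copy and neighbours *SNRPN*. It had log2 ratios of 0.31 and 0.20 in MAPK-inhibited ICM and -0.11 and -0.28 in control ICM, a difference of 0.45 (SE 0.072, unadjusted p = 0.0037, adjusted p = 0.315 by limma). Like those of *CDKN1C*, its ratios were above the pool with the inhibitor and below it in control ICM. *ASCL2*, a basic helix-loop-helix factor needed for the mouse placenta, had -0.19 and 0.16 in MAPK-inhibited ICM and -0.37 and -0.63 in control ICM, a difference of 0.49 (SE 0.171, limma adjusted p = 0.489). *UBE3A*, a ubiquitin ligase, had a difference of 0.23 (SE 0.082, limma adjusted p = 0.491) by its brightest probe, while another of its 5 probes had -0.09. Single arrays weighed on both, since without MAPK-inhibited b *ASCL2* had 0.31, and without MAPK-inhibited a *UBE3A* had 0.10. A second, dimmer probe of *NDN* had overlapping groups, with a difference of 0.12 (SE 0.117) that was -0.06 between the a arrays and 0.31 between the b arrays. Without MAPK-inhibited a, the brightest *NDN* probe had a difference of 0.39, and its spot there had a pixel SD of 0.493 of the mean.

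Of the genes lower at that threshold, *TP73* encodes a transcription factor of the p53 family and had the largest difference by size of the 35 under the main processing. Its log2 ratios were -0.48 and -0.46 in MAPK-inhibited ICM and 0.10 and 0.15 in control ICM, a difference of -0.60 (SE 0.071, unadjusted p = 0.00122, adjusted p = 0.277 by limma). Its groups lay on opposite sides of the pool, as did those of 4.66% of named genes in this direction, with the arrays of a group close together. *PON2*, a lactonase, had a difference of -0.35 (SE 0.088, limma adjusted p = 0.390) by its brightest probe. Its other probes had -0.48 (SE 0.488) and -0.26 (SE 0.181). Both were positive between the a arrays (0.48 and 0.07) and negative between the b arrays (-1.43 and -0.59). *IGF2*, the paternally expressed growth factor that *IGF2R* removes, had -0.0081 and -0.29 in MAPK-inhibited ICM and 0.16 and 0.11 in control ICM by its brightest probe, a difference of -0.28 (SE 0.091, limma adjusted p = 0.458). *IGF2* had 13 probes, of which 6 had a positive difference and 1 passed the unadjusted threshold, so its probes did not share a direction. The brightest *IGF2* spot on MAPK-inhibited a was uneven (pixel SD 1.25 of the mean), as was that of *PON2* (0.981), and without that array the differences were -0.42 for *IGF2* and -0.46 for *PON2*. Without MAPK-inhibited b they were -0.14 for *IGF2* and -0.23 for *PON2*.

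By their ratio to the pool in control ICM, the highest of the 35 were *TFPI2*, an inhibitor of serine proteases, with a mean of 0.19, *DCN*, a matrix proteoglycan, with 0.18, and *GNAS*, a G protein subunit, with 0.14. In MAPK-inhibited ICM their means were 0.15, 0.14 and 0.40. The other probes of *DCN* lay on both sides of the pool in control ICM, most of them below it, with means from -0.26 to 0.09. The lowest in control ICM were *ASCL2* with -0.50, *GAB1*, an adaptor of receptor tyrosine kinases, with -0.26, and *NDN* with -0.20, and in MAPK-inhibited ICM these had -0.01, -0.43 and 0.25. *GNAS* had positive differences for 5 of its 6 probes, and by its brightest probe the difference was 0.26 (SE 0.131), most of it between the a arrays (0.47 against 0.04 between the b arrays). By the brightest probe of each gene, *SNRPN*, with a control mean of 0.26, and *NAP1L5*, with 0.22, thus lay above all 35. This order depended on the probe. A dimmer probe of *ATP10A* had a control mean of 0.39, and one of *GNAS* had 0.26. The control means of the *SNRPN* probes ran from 0.07 to 0.55.

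**Figure D5:**
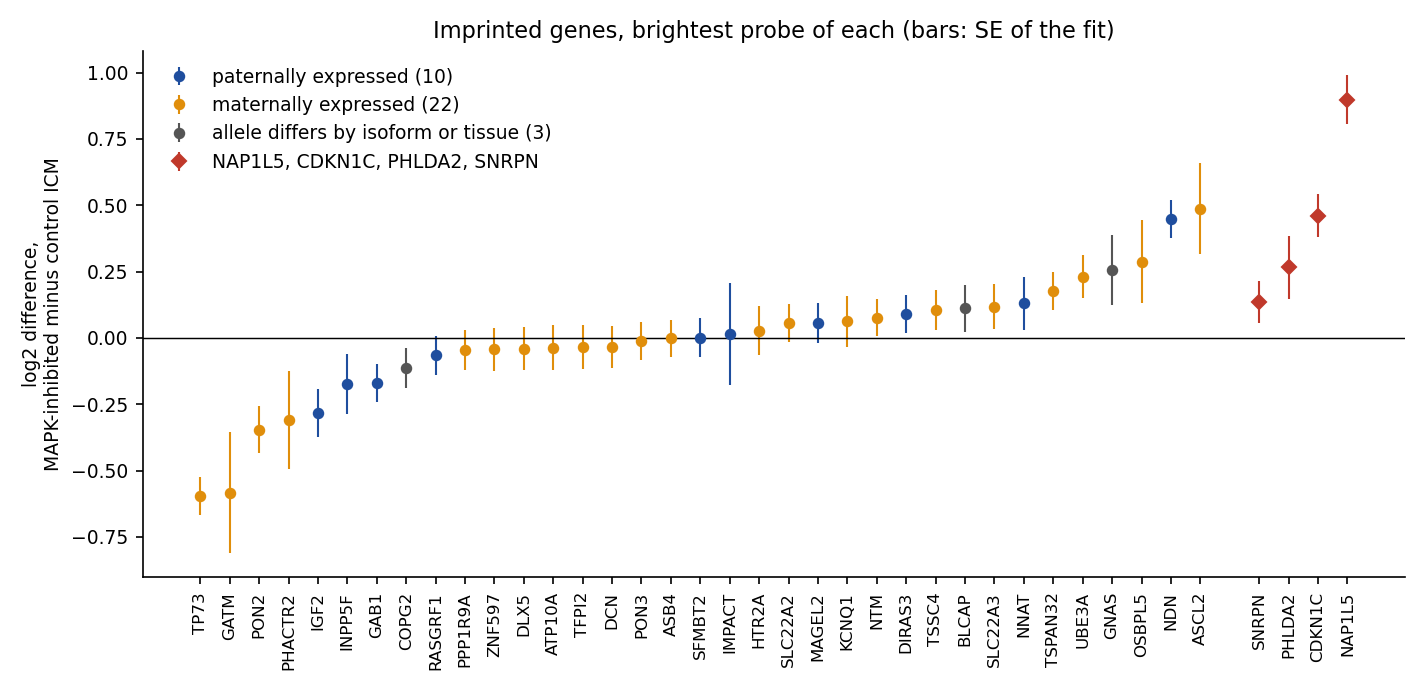
Log2 difference between MAPK-inhibited and control ICM (bars: SE of the fit) for the brightest probe of 35 other imprinted genes, coloured by the expressed copy and ordered by value, and for *SNRPN*, *PHLDA2*, *CDKN1C* and *NAP1L5* (red diamonds, right). The 35 genes ran from -0.60 for *TP73* to 0.49 for *ASCL2*, and *NAP1L5* lay above them at 0.90. *NAP1L5* was chosen with this difference known, so nothing is read from its place.

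Relatives and partners of the genes were compared by the same fit. Of 15 listed, 12 had a named probe, and 5 had a positive and 7 a negative difference, with a median of -0.11. At the unadjusted threshold 2 were lower and 0 higher, or 16.7% of the 12, near the 14.2% of all named genes. One of these was *IGF2*, given above. The other was *NAP1L1*, the widely expressed member of the nucleosome assembly family, with -0.20 and -0.07 in MAPK-inhibited ICM and 0.18 and 0.34 in control ICM. Its difference of -0.39 (SE 0.071, limma adjusted p = 0.329) had the opposite sign to that of *NAP1L5*, although the other 3 probes of *NAP1L1* had 0.09, -0.03 and -0.17, and its spot on MAPK-inhibited a was uneven (pixel SD 0.730 of the mean). *NAP1L3* had a difference of 0.02 (SE 0.118). Of the other cyclin-dependent kinase inhibitors of the family of *CDKN1C*, *CDKN1A*, which encodes p21, had 0.07 (SE 0.078), and its other probes had -0.02 and -0.01. *CDKN1B*, which encodes p27, had -0.13 (SE 0.135), with 0.10 between the a arrays and -0.36 between the b arrays. A second, dimmer probe of *CDKN1B* had -0.25 (SE 0.106). For *PHLDA1*, a relative of *PHLDA2*, the only named probe was dim, with sample signals of 44.6 and 39.7 on the MAPK-inhibited arrays a and b and 48.9 and 54.9 on the control arrays, and was above background on 3 of 4 arrays. Its difference of 0.03 (SE 0.071) therefore does not show whether *PHLDA1* differed.

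In RefSeq gene order *NAP1L5* lies within *HERC3*, a ubiquitin ligase gene. The brightest *HERC3* probe had 0.12 and -0.04 in MAPK-inhibited ICM and -0.33 and -0.18 in control ICM, a difference of 0.29 (SE 0.106), while its other 4 probes had differences between -0.02 and 0.02. Those 4 probes were dimmer, from percentile 44.8 down to 1.1 of intensity over all probes. The dimmest was above background on 2 of 4 arrays. The next genes were then looked at, up to 3 steps away, a choice made after seeing the data. *HERC5* had a difference of 0.38, *FAM13A* had -0.03 and *TIGD2* had -0.05. Beside *CDKN1C*, the potassium channel gene *KCNQ1* had 0.06 and *TSSC4* had 0.11, and beside *SNRPN*, *MAGEL2* had 0.06 and *ATP10A* had -0.04. The probes of *FAM13A*, *KCNQ1* and *MAGEL2* were dim, at percentiles 19.3, 27.7 and 10 of intensity. Their values therefore do not show whether these genes differed. *NDN* at 0.45 and *UBE3A* at 0.23, given above, are also neighbours of *SNRPN*, so the genes around *NAP1L5* and around *SNRPN* did not share one difference.

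Factors that keep imprints in the early embryo (zinc finger proteins, DNA methyltransferases and their partners) were measured for 15 of 18 listed genes, of which 9 had a positive and 6 a negative difference, with a median of 0.08. By the brightest probe of each gene, none was higher and 1 was lower at the unadjusted threshold, or 6.67% of the 15, beside 14.2% of all named genes. This was *ARID4A*, a chromatin protein with a role in imprinting at the Prader-Willi locus in mouse. It had log2 ratios of 0.14 and -0.27 in MAPK-inhibited ICM and 0.42 and 0.02 in control ICM, a difference of -0.28 (SE 0.071, limma adjusted p = 0.385). The difference was -0.28 between the a arrays and -0.29 between the b arrays, within each dye. Fitted on 3 arrays without the dye term, it ran from -0.49 without MAPK-inhibited a to -0.08 without MAPK-inhibited b, with -0.08 without control a and -0.48 without control b. *CTCF* had 0.13 (SE 0.072) by its brightest probe, whose spot on MAPK-inhibited a was uneven (pixel SD 1.07 of the mean). A second probe, nearly as bright, had 0.51 (SE 0.092, limma unadjusted p = 0.00556, adjusted p = 0.328). That probe had an uneven spot on MAPK-inhibited b (0.518), and its groups did not overlap. The remaining *CTCF* probes had 0.0011 and -0.02.

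The genes whose 4 ratios came closest to those of *NAP1L5*, among 8758 genes above the median intensity, were *ZAP70*, a kinase of T cell signalling, with a root-mean-square difference of 0.0312, *AHCY* (0.111), *PBK* (0.120), *FAM47E* (0.147) and *FKBP9* (0.150). *AHCY* breaks down S-adenosylhomocysteine, the product of methyl transfer, and *PBK* is a mitotic kinase. *ZAP70* had log2 ratios of 1.23 and 1.06 in MAPK-inhibited ICM and 0.24 and 0.26 in control ICM. The closest to *CDKN1C* were *RADIL* (0.0446), *GOLGA1* (0.0550), *CASC3* (0.0558), *NDN* (0.0613) and *BRF2* (0.0637). *NDN* is among the other imprinted genes above, of which 35 were measured among 12545 named genes. *CDKN1C* was chosen with the ratios of these arrays known, and the search used the same ratios. Nothing about imprinted genes is therefore read from this.

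Markers of the cell types of the blastocyst, and of the cumulus cells that surround the oocyte, were given by the same measure. Their part in the differences of the imprinted genes was not tested. Of 13 trophectoderm markers 7 were measured, with medians over the list of -0.16 and 0.06 on the MAPK-inhibited arrays a and b, and -0.11 and -0.02 on the control arrays a and b. At the unadjusted threshold 3 of the 7 differed (42.9%, beside 14.2% of all named genes), of which 2 were higher, *TFAP2A* by 0.47 and *PAG8* by 0.30, and *ELF5*, with -0.28, was lower, while *KRT7* had -0.18, *PAG2* -0.17, *GATA3* 0.01 and *HAND1* 0.15. Of 8 hypoblast markers 7 were measured, with list medians of -0.17 and -0.28 on the MAPK-inhibited arrays and 0.09 and 0.07 on the control arrays, and 6 of the 7 had a negative difference. At the unadjusted threshold 4 of the 7 were lower (57.1%, beside 5.45% of named genes), namely *FST* (-1.27), *NID1* (-1.01), *GATA6* (-0.55) and *LAMB1* (-0.47). The study had reported *FST*, *NID1* and *GATA6* as lower and *NANOG* as higher on these same arrays. It also reported a strong decrease of *IFNT*, an interferon gene that other work had placed in trophectoderm. Neither *IFNT* nor *CDX2* and *KRT18*, which the study used as trophectoderm genes, were among the markers measured here. The trophectoderm values above therefore do not cover these genes. The marker lists were made with earlier results known, so their shares are a description and no independent support. Of 6 epiblast markers 3 were measured and all 3 had a positive difference, from *PRDM14* at 0.08 to *NANOG* at 1.34, with 2 of them higher at the unadjusted threshold (66.7%, beside 8.77% of named genes). Of 8 cumulus cell markers 5 were measured, of which 4 had a positive and 1 a negative difference. The study removed cumulus cells by vortexing after fertilization, and whether any remained in these samples was not tested. At the unadjusted threshold 3 of the 5 were higher (60%, beside 8.77% of named genes), namely *FSHR* by 0.55, *CYP19A1* by 0.26 and *STAR* by 0.20. The list medians were -0.12 and 0.20 on the MAPK-inhibited arrays a and b, and -0.19 and -0.17 on the control arrays a and b. By level, *AMH* and *STAR* went by replicate rather than by group, below the pool on both a arrays and above it on both b arrays.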

How the data were processed

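The 8 genes and the gene lists were chosen with earlier results of these data known. Bovine arrays of 43653 probes and 1567 control spots were deposited as scanner output, in which the authors' Imagene 8 quantification gives the mean and median intensity of each spot and of its local background in Cy5 and Cy3, not normalized. A further table holds the authors' own log2 ratios, after loess and removal of gene-specific dye bias. Regressing the scanner log2 ratio (Cy5 over Cy3) on its columns gave slopes of -1.03 (MAPK-inhibited a), 1.04 (MAPK-inhibited b), -1.04 (control a) and 1.05 (control b), so that they were ratios of ICM over pool; their medians were 0.015, 0.01, 0.004 and 0.01, and how they were centred is unknown.

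Mean spot intensities were corrected by normexp on the median of the local background with an offset of 50, and their log2 ratios were loess-normalized per array, with control spots at weight 0 and not tested (R 4.3.3, limma 3.58.1). All columns of per-sample values were used through their labels. A linear model with group and dye was then fitted per probe (lmFit, eBayes) on 4 arrays, with 1 residual and 2.90 prior degrees of freedom. Tests were two-sided with Benjamini-Hochberg adjustment over all probes at 0.05. The study's permutation F test was not run. The replicate letter is also the dye, so the dye term is the replicate block; across probes, same-letter arrays deviated together from their groups (r = 0.454). The replicates are biological according to the study, but separate cultures are not named in the labels, so p-values measure only the spread between these samples. With 2 arrays per group the number of arrays limits the precision.

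A gene was represented by its brightest probe, not by the probe nearest the 3′ end that the study used, since probe positions were not given. The platform annotation gave 1 symbol to 27952 probes, several to 0 and none to 15701, and symbols of 1831 probes were updated through RefSeq (ARS-UCD2.0), which gave 12545 genes. The limit for signal above background was percentile 95 of the 757 negative controls. Named genes were these 8, the 5 genes closest to *NAP1L5* and to *CDKN1C*, other imprinted genes, imprint maintenance factors and relatives with an unadjusted p under 0.05, the 3 highest and 3 lowest other imprinted genes against the pool, some relatives chosen by name, and cell type markers. The script was tested on simulated data. Alternatives were other background corrections, scalings, spot summaries, probe filters and sets of 3 arrays, which were fitted without the dye term.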

Additional observations from a re-analysis of the deposited data

Results flagged for a closer look

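Among genes described above, 5 had ICM over pool log2 ratios on opposite sides of the pool in the groups, on every array. Whether the ICM to pool ratio differs in direction between the groups was not tested beyond the fits given above. The differences of MAPK-inhibited minus control ICM were 0.46 for *CDKN1C* and 0.45 for *NDN*, both above the pool in MAPK-inhibited ICM and below it in control ICM, as were 4.09% of named genes. They were -0.60 for *TP73*, -0.39 for *NAP1L1* and -0.28 for *IGF2*, all below the pool in MAPK-inhibited ICM and above it in control ICM, as were 4.66% of named genes. For *IGF2* one of these ratios, -0.0081 on MAPK-inhibited a, was close to the pool.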

How the results depend on the processing

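The differences of *NAP1L5*, *CDKN1C* and *PHLDA2* were positive under every alternative run, and *SNRPN* turned to -0.041 with median centring and was 0.03 as a mean over its probes. Leaving out the replicate block (the dye term) cannot change a difference here, since each group had the same dyes. The differences stayed at 0.90 for *NAP1L5* and 0.46 for *CDKN1C*, with 0 adjusted calls and 3228 unadjusted ones. With the background mean in normexp the differences were 0.59 for *NAP1L5*, 0.31 for *CDKN1C* and 0.25 for the median of the 4 genes, whose median over the pool was 0.24 in MAPK-inhibited ICM. With median centring they were 0.31 for *CDKN1C* and 0.21 for the median of the 4, whose medians over the pool were 0.19 in MAPK-inhibited and 0.032 in control ICM. In sets of 3 arrays, fitted without the dye term and with the lone array of a group assumed to vary like the others, *NAP1L5* ranged from 0.80 to 1.00, *CDKN1C* from 0.37 to 0.55, *PHLDA2* from 0.07 to 0.47 and *SNRPN* from 0.07 to 0.20.

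Over all probes, 43 passed the adjusted threshold with no background correction, 319 in the authors' processed ratios and 0 to 101 in sets of 3 arrays (42 without MAPK-inhibited a, 101 without MAPK-inhibited b). Unadjusted calls ranged from 1433 (without control b) to 5946 (without MAPK-inhibited a) and were 2028 without control a. For the other imprinted genes they ranged from 2 to 10 (10 without MAPK-inhibited a, 3 without control a, 2 without control b), and the median difference was 0.016 with no background correction, -0.057 with median centring, 0.030 in the authors' ratios and -0.015 to 0.045 in sets of 3 arrays. The 8 other imprinted genes, maintenance factors and relatives with an unadjusted p under 0.05 kept their sign under the 13 alternatives run on them, and 0 passed the adjusted threshold there. *TP73* lost the unadjusted threshold in 0, *NDN* and *NAP1L1* in 1 each, *PON2* in 4, *ASCL2* and *IGF2* in 5, *ARID4A* in 7 and *UBE3A* in 9 of these. Over the results that answer a comparison, 87 values stayed and 23 moved, by more than the replicate spread for a difference or ratio and by more than 1.5 times for a count. Part of the 87, and of the signs kept, was fixed in advance. The difference of a gene cannot change when only the dye term is left out or other probes are filtered away. Nor can it change with quantile scaling of intensities after loess, which leaves the ratios as they are. The causes of these shifts were not tested. Uneven spots limit the values of MAPK-inhibited a.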

Other observations

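*HELLS*, a chromatin remodeller needed for DNA methylation in mouse and listed here with the imprint maintenance factors, was above the pool on all 4 arrays, with log2 ratios of 1.09 and 0.43 in MAPK-inhibited ICM and 0.66 and 0.71 in control ICM, and was singled out after its values were seen. Its difference was 0.08 (SE 0.192), with opposite signs between the a arrays (0.43) and the b arrays (-0.28). *AMH*, a hormone of granulosa cells, had -0.46 and 0.74 on the MAPK-inhibited arrays a and b, and -0.62 and 0.73 on the control arrays a and b.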
